A study of Mus musculus with 6 samples.

Results

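The 40 genes described here are macrophage and leukocyte transcripts measured in cultures of primary mouse Sertoli cells, and all 40 had a value among the 29275 genes of each library. They were chosen by name, as genes known to be transcribed in blood-derived cells and above all in macrophages. Earlier results of these data were known when they were chosen, so counts over them are descriptions and not independent support. Each symbol was matched to its Ensembl identifier. The study compared 3 libraries from wild-type mice (WT) with 3 libraries labelled Arhgef15 cKO, a conditional knockout of Arhgef15, which encodes a guanine nucleotide exchange factor. Cells of both genotypes were kept in DMEM/F12 with serum, antibiotics and EGF, and the cKO libraries were given no treatment other than the deletion. The labels call the samples biological replicates, but nothing states that they came from separate animals, so p-values reflect only how these samples vary; the Cre driver, strain and age were not stated either. Levels are FPKM, fragments scaled by exon length and by the size of the library, and values are listed in the order of replicates 1, 2 and 3.

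Sertoli cells line the seminiferous tubules and support the developing germ cells. Macrophages live in the testis between the tubules and around them, depend on signalling through the CSF1 receptor, and engulf particles and dying cells through receptors for antibody, complement and lipid. Preparations of testis cells can carry such cells into culture, where macrophages adhere. Complement C1q, the lysosomal proteases and lysozyme are among the most abundant products of tissue macrophages.

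Of 15 Sertoli markers, all had signal, with summed levels of 254, 242 and 746 FPKM in WT libraries and 697, 535 and 813 FPKM in cKO libraries. Fshr, the FSH receptor of Sertoli cells, was listed at 0 in WT replicates 1 and 2. The depth recovered from the values was 16787682 to 20321317 fragments. Across the 12284 tested genes, the Pearson correlation of WT replicate 3 was 0.860 and 0.898 with WT replicates 1 and 2 and 0.921 to 0.947 with the cKO libraries; genes are not independent replicates. WT replicate 3 therefore stood apart from its group, and the main results are also given without it. Leaving out each library in turn was planned, but WT replicate 3 was singled out for its values. Dropping a WT library close to the cKO libraries tends to widen the differences, so calls made without it are not separate support. Arhgef15 was listed at 0.123, 0.0237 and 0.349 FPKM in WT and at 0.501, 0.322 and 0.338 FPKM in cKO libraries. The cKO label went with no drop of this transcript, but every value was under 1 FPKM, too low to check the deletion. The part deleted is not named in the labels, and the whole-gene value may not report it. Whether any library carries a wrong label cannot be told from these values, and every difference below is between libraries as labelled.

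Macrophage transcripts were present in every culture, and their sum was highest in 2 of the 3 WT libraries. Summed over the 40 genes, the level was 2421, 2001 and 769 FPKM in WT libraries and 784, 504 and 613 FPKM in cKO libraries. WT replicate 3 lay just under cKO replicate 1, so the groups overlapped, and WT replicates 1 and 2 stood far above the other 4 libraries. The means were 1730.4 ± 858 and 633 ± 141 FPKM (SD, n = 3 each), a cKO to WT ratio of 0.366. As a share of the summed FPKM of all genes, the 40 made up 0.698%, 0.651% and 0.262% in WT and 0.256%, 0.168% and 0.210% in cKO libraries. In bulk RNA, fewer cells of a type and less RNA of that type per cell cannot be told apart.

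**Figure D1:**
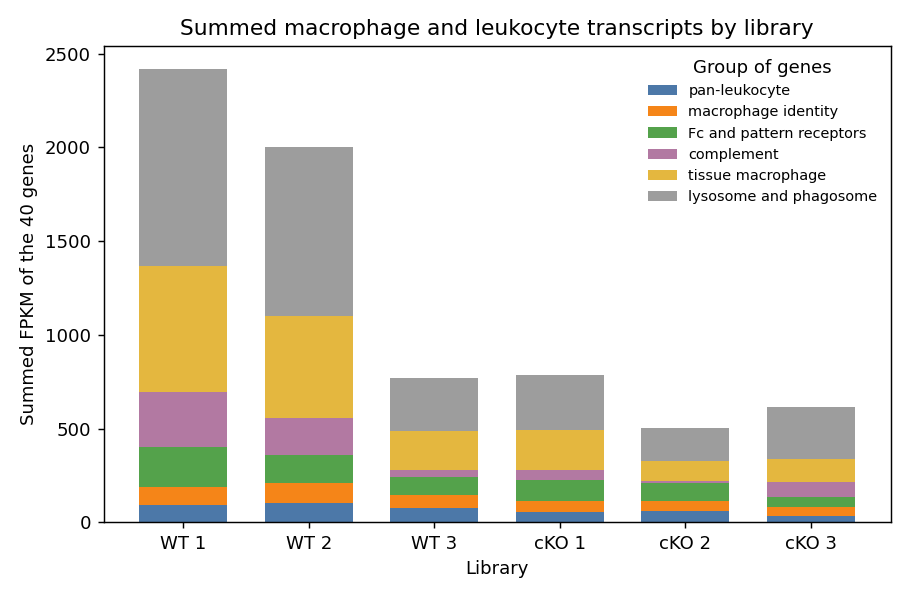
Stacked bars give the summed FPKM of the 40 genes in each of the 6 libraries, split by the role of the genes. WT replicates 1 and 2 reach 2421 and 2001 FPKM, whereas WT replicate 3 stands at 769 FPKM, close to cKO replicate 1 at 784 FPKM.

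The mean of 38 of the 40 genes was lower in cKO than in WT libraries, and the exceptions were Cd14 and Cybb. Differences were tested with limma on log2(FPKM + 1) over every gene that reached 1 FPKM in 3 or more libraries. Of the 40, 36 passed this filter, and Ptprc, Cd33, Cx3cr1 and Cd163 did not. Aif1 passed it through the WT libraries alone, so its groups could not overlap and their separation is no support. None of the 36 passed a Benjamini-Hochberg adjusted p of 0.05 in either direction, where 0.0163% of all tested genes passed as lower and 0% as higher. At an unadjusted p under 0.05, 13 of the 36 were lower and none was higher, against 2.94% of all tested genes that were lower. The median log2 difference of the 36 was -0.92, beside 0.08 for all 12284 genes, and it was -0.88 for all 40 genes without the filter. Over all tested genes 40.2% were lower in cKO libraries, the share to set beside the counts of lower and higher genes below. In 8 genes, Aif1 among them, all cKO values lay below all WT values (5.01% of all tested genes did so). In none did all cKO values lie above (6.28% of all tested genes).

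The outcome depended on WT replicate 3. Without it, 9 of the 36 passed the adjusted threshold (limma), all as lower in cKO libraries, where 1.42% of all tested genes passed as lower. They were Csf1r, Spi1, Tyrobp, Trem2, Vsig4, F13a1, Pf4, Lyz2 and Ctss. In 28 of the 36 all cKO values then lay below both WT values, against 15.5% of all tested genes, and the median difference was -1.18. The level of WT replicate 3 lay inside the range of the cKO libraries for 26 of the 40 genes, above it for 10 and below it for 4. Without WT replicate 3 and cKO replicate 2 together, 9 genes passed as lower, where 0.635% of all tested genes did. Of these, 6 were among those just named. Csf1r, Trem2 and F13a1 no longer passed (limma, adjusted p = 0.0834, 0.0762 and 0.0963). This fit reuses libraries of the fit before it, so the overlap is not separate support. Leaving out any 1 of the other 5 libraries gave no call.

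**Figure D2:**
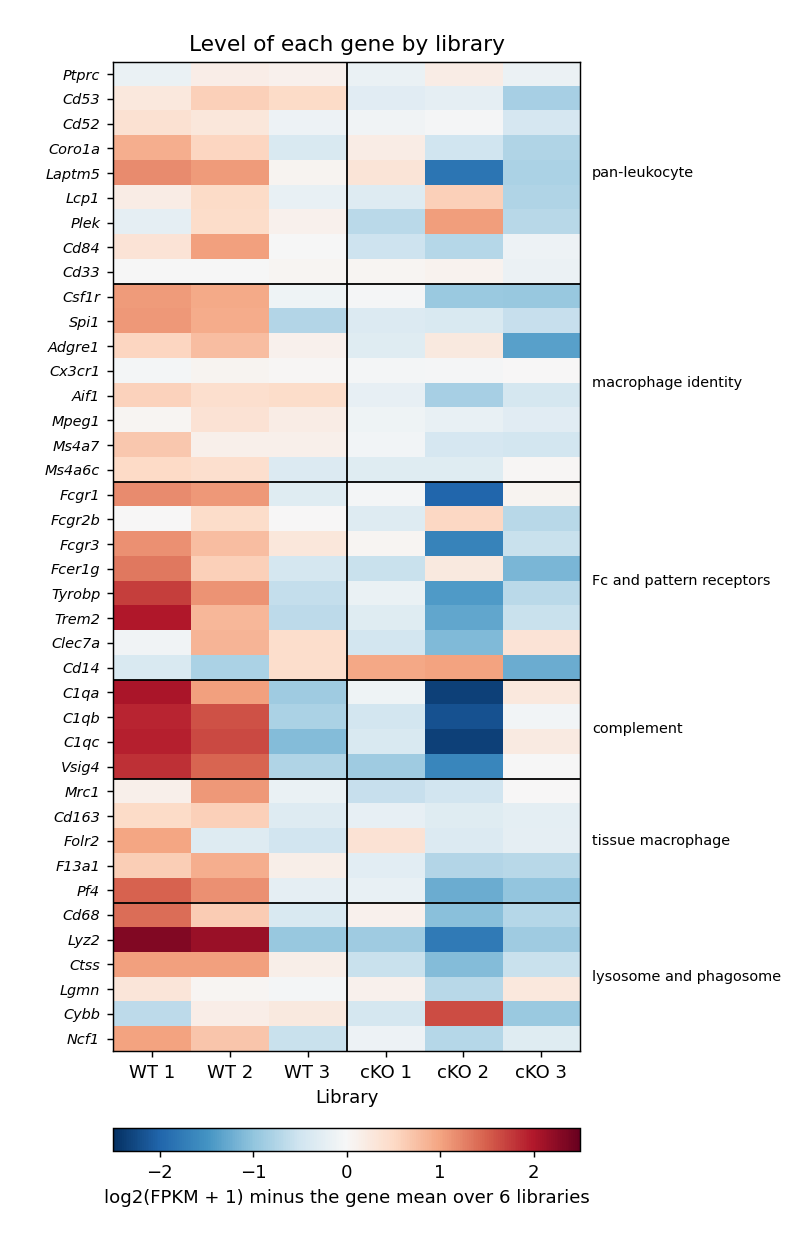
Each row is 1 of the 40 genes and each column a library; colour is log2(FPKM + 1) minus the mean of that gene over the 6 libraries, and black lines separate the genotypes and the roles. Lyz2, C1qb and C1qc are dark red in WT replicates 1 and 2, and Cd14, Cybb and Plek are red in cKO replicate 2.

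Genes grouped here as broad leukocyte markers did not follow one pattern. Of the 9 genes of this group, 7 were tested, none passed, and their median log2 difference was -0.70 (-0.88 without WT replicate 3). Cd53 (ENSMUSG00000040747), a tetraspanin of the leukocyte surface, was at 34.0, 42.7 and 39.7 FPKM in WT and at 23.0, 23.7 and 15.2 FPKM in cKO libraries. All 3 WT libraries, replicate 3 included, were above all 3 cKO libraries. The means were 38.8 ± 4.42 and 20.7 ± 4.72 FPKM (SD, n = 3 each). Its fitted log2 difference was -0.90 with an SE of 0.23 (limma, adjusted p = 0.545), and -0.88 without WT replicate 3 (limma, adjusted p = 0.105).

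Cd84 (ENSMUSG00000038147), a homophilic receptor of the SLAM family, was at 3.15, 5.645 and 2.26 FPKM in WT and at 1.29, 1.01 and 1.99 FPKM in cKO libraries. The groups did not overlap, although WT replicate 3 and cKO replicate 3 were close. On the log2 scale the difference was -0.90 with an SE of 0.32 (limma, adjusted p = 0.652). Laptm5, a lysosomal membrane protein of blood cells, ranged from 11.8 to 26.8 FPKM in WT and from 2.45 to 14.3 FPKM in cKO libraries. Coro1a, an actin-binding coronin, ranged from 2.65 to 7.86 and from 1.82 to 4.41 FPKM; it overlaps Bola2 on the opposite strand, which was at 6.06 to 15.04 FPKM, and no source used here states whether counting used strand. Cd52, a small glycoprotein of the surface, ranged from 1.29 to 2.25 and from 0.880 to 1.46 FPKM.

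Plek, Lcp1 and Ptprc were highest in cKO replicate 2, whereas Laptm5 and Cd84 were lowest there. Plek, the protein kinase C substrate pleckstrin, was at 6.72, 11.2 and 8.64 FPKM in WT and at 4.61, 17.4 and 4.52 FPKM in cKO libraries. Lcp1, the actin bundler L-plastin, was at 9.63, 11.97 and 7.17 FPKM in WT and at 6.44, 13.04 and 4.56 FPKM in cKO libraries. Ptprc, which encodes the CD45 phosphatase that marks leukocytes, was at 0.280, 0.610 and 0.537 FPKM in WT and at 0.273, 0.638 and 0.296 FPKM in cKO libraries. For each of them cKO replicate 2 exceeded every WT library, and the other cKO libraries lay below all WT libraries except cKO replicate 3 for Ptprc. Ptprc values rest on 96 to 218 fragments, which FPKM divides by a summed exon length of 18313 bp. Lcp1 had 870 to 2218 fragments over 9504 bp. Ptprc was thus detected in every library, but it was low in fragments as well as per length. Cd33, a sialic acid-binding lectin, stayed between 0.0961 and 0.284 FPKM in all libraries, on 15 to 40 fragments.

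Genes that define macrophages were present in every library, with the exception of Cx3cr1. Of 8 such genes 7 were tested, none passed, 3 lay below in all cKO libraries (5.01% of all tested genes did), and the median difference was -0.86 (-0.99 without WT replicate 3). Aif1 is among the 3, and its non-overlap follows from how it passed the filter. Csf1r (ENSMUSG00000024621), the receptor for CSF1 and IL-34, was at 25.2, 23.0 and 10.6 FPKM in WT and at 11.3, 5.57 and 5.52 FPKM in cKO libraries. WT replicates 1 and 2 were above all cKO libraries and WT replicate 3 fell between cKO replicates 1 and 2. Means were 19.6 ± 7.88 and 7.46 ± 3.31 FPKM (SD, n = 3 each). The log2 difference was -1.26 with an SE of 0.39 (limma, adjusted p = 0.608), and -1.64 without WT replicate 3, where it passed (limma, adjusted p = 0.0408). Csf1r overlaps Hmgxb3 on the opposite strand, which was at 3.45 to 7.22 FPKM.

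Aif1 (ENSMUSG00000024397), the calcium-binding protein IBA1 of macrophages, was at 2.16, 1.84 and 1.93 FPKM in WT and at 0.842, 0.194 and 0.552 FPKM in cKO libraries. The 3 WT libraries lay close together and above all cKO libraries. That separation follows from the filter, which Aif1 passed through the WT libraries alone. These values rest on 62, 55 and 60 fragments in WT and on 25, 5 and 17 in cKO libraries, and for the 5 fragments the exact Poisson 95% interval was 1.6 to 11.7, which covers counting error only. Its log2 difference between genotypes was -0.98 with an SE of 0.24 (limma, adjusted p = 0.545), and -0.99 without WT replicate 3 (limma, adjusted p = 0.0875).

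Mpeg1 (ENSMUSG00000046805), the pore-forming perforin-2 of phagocytes, was at 37.5, 46.5 and 41.2 FPKM in WT and at 33.5, 31.5 and 29.5 FPKM in cKO libraries. No cKO library reached the lowest WT library, and WT replicate 3 was as high as the other WT libraries. The means were 41.7 ± 4.50 and 31.5 ± 2.03 FPKM (SD, n = 3 each), and the log2 difference was -0.39 with an SE of 0.18 (limma, adjusted p = 0.755). Ms4a7, a membrane protein of mature macrophages, did not overlap either, with 2.19 to 3.66 FPKM in WT and 1.13 to 1.80 FPKM in cKO libraries. Adgre1, which encodes the F4/80 antigen, was at 12.1, 14.4 and 8.80 FPKM in WT and at 6.31, 9.66 and 2.54 FPKM in cKO libraries, and cKO replicate 2 exceeded WT replicate 3. Ms4a6c ranged from 0.600 to 1.87 FPKM in WT and from 0.639 to 1.07 FPKM in cKO libraries. Cx3cr1, the fractalkine receptor carried by many testicular macrophages, was close to absent, with 0, 7 and 4 fragments in WT and 0, 1 and 3 fragments in cKO libraries; the exact Poisson 95% interval of a count of 0 reaches 3.7 fragments.

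Spi1, which encodes PU.1, the transcription factor that sets the myeloid programme, was at 14.9, 13.4 and 3.52 FPKM in WT and at 4.92, 4.77 and 4.04 FPKM in cKO libraries. WT replicate 3 was the lowest of the 6 libraries, under all cKO values. The log2 difference was -0.86 with an SE of 0.47 (limma, adjusted p = 0.770), and -1.44 without WT replicate 3, where it passed (limma, adjusted p = 0.0175). PU.1 is known to bind purine-rich sites with a GAGGAA core, and upstream sequence is shown for 6 of the genes given in full whose RefSeq start opens an annotated transcript. The lines give the 250 bases before the start in RefSeq (GRCm38.p6), 5′ to 3′ on the strand of the gene. Capitals mark GAGGAA or its reverse complement TTCCTC. The first 5 hold it at least once and Cd84 is shown as one that does not. Among genes given in full but not shown, Aif1 and C1qb held it and Mpeg1 and Lyz2 did not. F13a1 held it before 1 start and not before the other.
Ctss, chr3:95526536-95526785, plus strand: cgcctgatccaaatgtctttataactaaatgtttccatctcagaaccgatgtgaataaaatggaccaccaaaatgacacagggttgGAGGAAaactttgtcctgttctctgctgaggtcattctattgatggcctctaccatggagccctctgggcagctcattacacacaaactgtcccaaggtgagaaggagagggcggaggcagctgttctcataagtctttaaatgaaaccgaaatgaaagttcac
Pf4, chr5:90772185-90772434, plus strand: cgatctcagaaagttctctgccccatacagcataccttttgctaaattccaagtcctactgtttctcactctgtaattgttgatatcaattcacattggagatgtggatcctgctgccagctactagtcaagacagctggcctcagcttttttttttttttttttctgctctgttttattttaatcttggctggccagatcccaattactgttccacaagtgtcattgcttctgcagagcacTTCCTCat
Vsig4, chrX:96293439-96293688, minus strand: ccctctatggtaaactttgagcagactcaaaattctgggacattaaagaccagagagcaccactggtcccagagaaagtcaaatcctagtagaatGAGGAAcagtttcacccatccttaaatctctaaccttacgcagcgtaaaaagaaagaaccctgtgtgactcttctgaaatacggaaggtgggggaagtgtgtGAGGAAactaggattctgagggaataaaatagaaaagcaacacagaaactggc
Cd53, chr3:106790150-106790399, minus strand: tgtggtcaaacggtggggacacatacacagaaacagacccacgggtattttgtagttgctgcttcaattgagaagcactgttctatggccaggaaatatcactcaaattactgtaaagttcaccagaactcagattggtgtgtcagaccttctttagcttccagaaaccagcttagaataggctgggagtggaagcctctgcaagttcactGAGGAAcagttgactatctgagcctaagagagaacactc
Fcgr3, chr1:171059404-171059653, minus strand: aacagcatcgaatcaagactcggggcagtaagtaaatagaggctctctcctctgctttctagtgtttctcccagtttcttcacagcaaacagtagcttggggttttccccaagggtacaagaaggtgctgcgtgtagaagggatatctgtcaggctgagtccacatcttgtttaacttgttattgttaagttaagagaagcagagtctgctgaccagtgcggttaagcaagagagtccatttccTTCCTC
Cd84, chr1:171839447-171839696, plus strand: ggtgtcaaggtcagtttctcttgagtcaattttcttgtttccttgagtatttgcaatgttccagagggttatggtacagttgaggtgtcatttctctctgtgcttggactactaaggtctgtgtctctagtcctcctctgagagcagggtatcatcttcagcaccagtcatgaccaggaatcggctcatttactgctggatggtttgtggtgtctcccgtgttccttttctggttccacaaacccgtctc

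A match to these letters describes the sequence and is not evidence of binding. Of the 40 genes, 33 matched the RefSeq promoter table, with 42 windows. GAGGAA on either strand was in the upstream bases of 18 of the 33 genes, beside 25.85% of the 27025 genes of the table. Vsig4 held it 2 times. The longer GAGGAAGT, which contains GAGGAA, was in 2 of the 33, C1qc and Pf4, beside 2.79% of all genes. The AP-1 site TGAGTCA was in 3, Cd68, Cd84 and Folr2 (5.16% of all genes), and CACGTG, the E-box core found in many lysosomal genes, was in Lgmn alone (6.86% of all genes). Both strands were searched for each, and no test was made.

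Receptors for antibody and microbial patterns, and the adaptors that signal for them, varied widely between libraries. All 8 genes were tested, none passed, 7 were lower in mean, and the median difference was -1.15 (-1.56 without WT replicate 3). Fcgr3 (ENSMUSG00000059498), an activating receptor for IgG, was at 36.2, 27.7 and 19.6 FPKM in WT and at 16.5, 4.29 and 10.5 FPKM in cKO libraries. All WT libraries were above all cKO libraries, with cKO replicate 2 far below the rest. The fitted difference (log2) was -1.46 with an SE of 0.45 (limma, adjusted p = 0.608), and -1.68 without WT replicate 3 (limma, adjusted p = 0.101). Fcgr2b, its inhibitory counterpart and close paralog, differed in pattern, at 4.46, 6.50 and 4.47 FPKM in WT and 3.33, 6.81 and 2.36 FPKM in cKO libraries. It was highest in the library where Fcgr3 was lowest, and fragments of the paralogs may be split between them.

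Tyrobp (ENSMUSG00000030579), the adaptor DAP12 through which TREM2 signals, was at 70.8, 46.0 and 13.4 FPKM in WT and at 18.4, 7.14 and 12.6 FPKM in cKO libraries. WT replicate 3 lay among the cKO libraries. The means were 43.4 ± 28.8 and 12.7 ± 5.63 FPKM (SD, n = 3 each). The log2 difference was -1.50 with an SE of 0.60 (limma, adjusted p = 0.700), and -2.17 without WT replicate 3, where it passed (limma, adjusted p = 0.0330). Trem2, a receptor for lipids and lipoproteins, was at 17.2, 7.07 and 1.89 FPKM in WT and at 2.69, 0.855 and 2.103 FPKM in cKO libraries. WT replicate 1 held 9.10 times the level of WT replicate 3, a gap within one genotype. Without WT replicate 3 the log2 difference of Trem2 was -2.13 and passed (limma, adjusted p = 0.0459).

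Fcer1g, the common gamma chain of Fc receptors, was at 51.5, 31.1 and 14.5 FPKM in WT and at 13.3, 23.9 and 8.54 FPKM in cKO libraries. Fcgr1, the high-affinity IgG receptor, was at 11.5, 10.7 and 3.44 FPKM in WT and at 4.28, 0.391 and 4.75 FPKM in cKO libraries. In both genes the groups overlapped. The lowest Fcgr1 value, in cKO replicate 2, rests on 17 fragments (exact Poisson 95% interval 9.9 to 27.2). Clec7a, the beta-glucan receptor dectin-1, ranged from 4.27 to 9.12 FPKM in WT and from 1.60 to 6.09 FPKM in cKO libraries.

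Cd14 (ENSMUSG00000051439), the co-receptor for bacterial lipopolysaccharide, went the other way from most of the 40. It was at 18.01, 13.3 and 32.6 FPKM in WT and at 47.1, 48.4 and 9.45 FPKM in cKO libraries. cKO replicates 1 and 2 were the highest libraries and cKO replicate 3 the lowest, so the groups overlapped fully. The means were 21.3 ± 10.0 and 35.0 ± 22.1 FPKM (SD, n = 3 each), and the log2 difference was 0.48 with an SE of 0.63 (limma, adjusted p = 0.906).

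**Figure D3:**
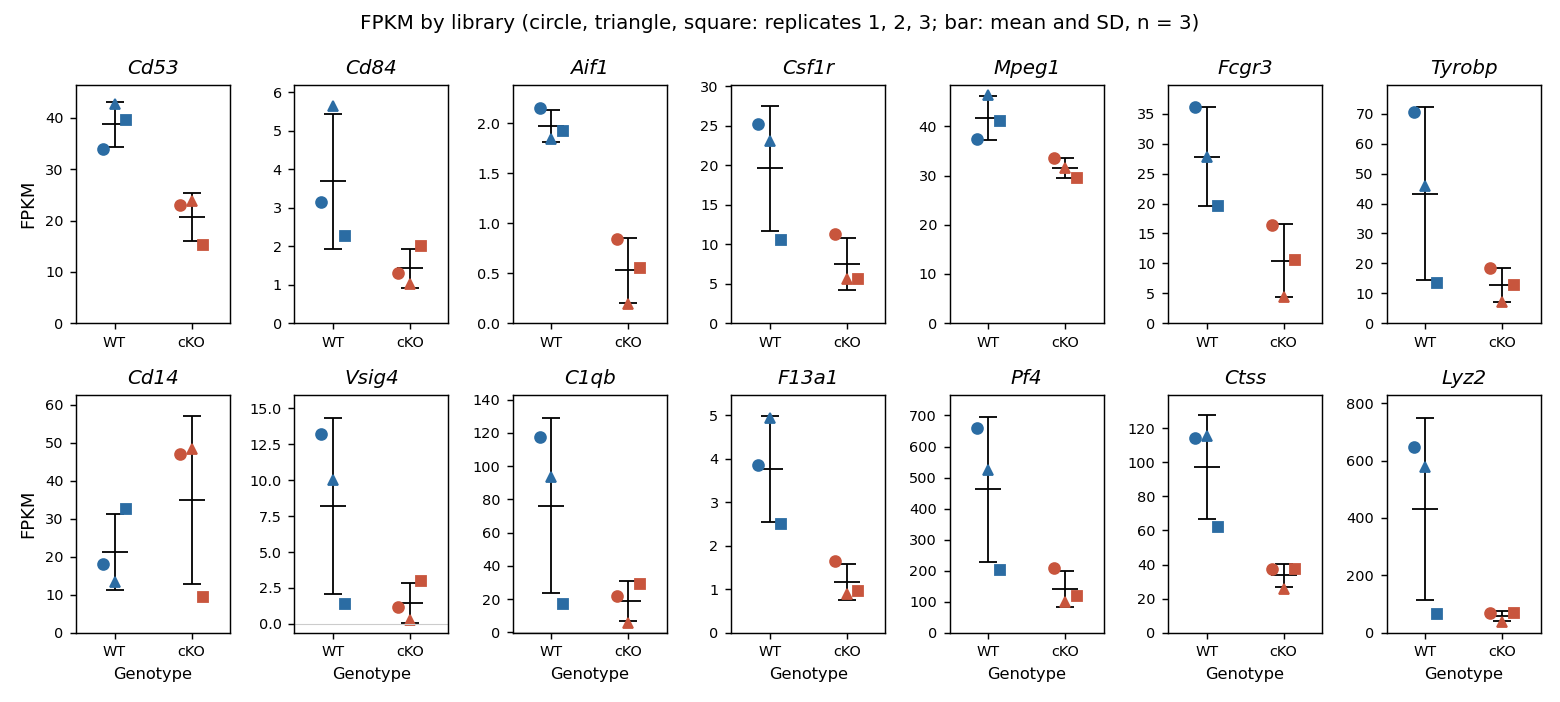
FPKM of the 14 genes given in full, with the replicates as circles, triangles and squares, WT in blue, cKO in red, and bars for mean and SD (n = 3). Cd53, Aif1, Mpeg1 and Ctss separate the genotypes in all libraries, whereas for Lyz2, C1qb and Vsig4 the square of WT replicate 3 sits among the cKO values. Aif1 passed the filter through the WT libraries alone, so its separation is no support.

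The complement genes had the largest median difference of the role groups and varied widely within both genotypes. All 4 were tested and were lower in mean, none passed, and in none did the groups separate; the median difference was -1.68 (-2.56 without WT replicate 3). C1qb (ENSMUSG00000036905), which with C1qa and C1qc forms the recognition protein of the classical pathway, was at 118, 93.7 and 17.2 FPKM in WT and at 22.1, 5.97 and 29.3 FPKM in cKO libraries. WT replicate 3 was lower than cKO replicates 1 and 3. On the log2 scale this came to -1.80 with an SE of 0.80 (limma, adjusted p = 0.736), and -2.64 without WT replicate 3 (limma, adjusted p = 0.0575). C1qa followed at 107, 52.1 and 13.2 FPKM in WT and 23.4, 4.18 and 30.2 FPKM in cKO libraries. C1qc was at 53.7, 43.8 and 5.73 FPKM in WT and at 10.0, 1.82 and 15.7 FPKM in cKO libraries. The chains thus kept the same order of libraries, highest in WT replicate 1, then WT replicate 2 and cKO replicate 3, and lowest in cKO replicate 2.

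Vsig4 (ENSMUSG00000044206), a receptor for C3b on tissue-resident macrophages, was at 13.2, 9.98 and 1.36 FPKM in WT and at 1.15, 0.281 and 2.95 FPKM in cKO libraries. It had the same order of highest and lowest libraries as the C1q chains, except that WT replicate 3 exceeded cKO replicate 1. Its fragments numbered 367, 289 and 41 in WT and 33, 7 and 88 in cKO libraries. The means were 8.18 ± 6.12 and 1.46 ± 1.36 FPKM (SD, n = 3 each). The log2 difference was -1.69 with an SE of 0.71 (limma, adjusted p = 0.727), and -2.49 without WT replicate 3, where it passed (limma, adjusted p = 0.0351).

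Together the 4 complement genes made up 12.05%, 9.97% and 4.87% of the summed level of the 40 genes in WT libraries and 7.23%, 2.43% and 12.8% in cKO libraries. By this share cKO replicate 3 was the highest of the 6 libraries although its sum over the 40 was the second lowest. The make-up of these transcripts therefore differed between libraries of 1 genotype, in addition to their total.

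Genes of tissue-resident macrophages numbered 5, of which 4 were tested and none passed; the median difference was -0.90 (-1.14 without WT replicate 3). F13a1 (ENSMUSG00000039109), the A subunit of coagulation factor XIII, was at 3.85, 4.94 and 2.504 FPKM in WT and at 1.64, 0.901 and 0.967 FPKM in cKO libraries. All WT libraries were above all cKO libraries. The means were 3.76 ± 1.22 and 1.17 ± 0.408 FPKM (SD, n = 3 each). Fitted over all genes, the log2 difference was -1.12 with an SE of 0.27 (limma, adjusted p = 0.545), and -1.32 without WT replicate 3, where it passed (limma, adjusted p = 0.0387).

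Pf4 (ENSMUSG00000029373), the chemokine CXCL4 made by megakaryocytes and also by some tissue macrophages, had the highest mean level of the 40. It was at 659, 524 and 203 FPKM in WT and at 208, 99.9 and 118 FPKM in cKO libraries. WT replicate 3 and cKO replicate 1 were level, and cKO replicates 2 and 3 were lower. The means were 462 ± 234 and 142 ± 57.6 FPKM (SD, n = 3 each). The log2 difference was -1.61 with an SE of 0.48 (limma, adjusted p = 0.596), and -2.11 without WT replicate 3, where it passed (limma, adjusted p = 0.0233). Of the other platelet and red cell markers, Ppbp was at 37.4, 44.3 and 37.9 FPKM in WT and at 29.0, 5.17 and 19.2 FPKM in cKO libraries, and the other 5 with a row were under 1 FPKM in every library.

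The other 3 genes of the group were far below Pf4 in level. Mrc1, the mannose receptor, was at 4.19, 9.01 and 3.22 FPKM in WT and at 2.19, 2.43 and 3.77 FPKM in cKO libraries. Cd163, the haemoglobin scavenger receptor, was at 0.977, 1.13 and 0.135 FPKM in WT and at 0.227, 0.142 and 0.200 FPKM in cKO libraries, with WT replicate 3 the lowest of all. Folr2, a folate receptor, was at 4.14, 1.06 and 0.859 FPKM in WT and at 2.34, 1.04 and 1.22 FPKM in cKO libraries. Folr2 was high in WT replicate 1 alone among the WT libraries, and its log2 difference was -0.13 (limma, adjusted p = 0.965).

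Genes of the lysosome and phagosome held the largest part of the summed level, 35.3% to 45.1% in each library. All 6 were tested, none passed, and the median difference was -0.93 (-1.40 without WT replicate 3). Ctss (ENSMUSG00000038642), the protease cathepsin S that trims the MHC class II invariant chain, had the smallest p of the 40. It was at 114, 115 and 62.0 FPKM in WT and at 37.6, 25.6 and 37.5 FPKM in cKO libraries. All WT libraries lay above all cKO libraries, of which WT replicate 3 was the lowest. The means were 97.2 ± 30.5 and 33.6 ± 6.90 FPKM (SD, n = 3 each). In log2 terms the genotypes differed by -1.47 with an SE of 0.30 (limma, adjusted p = 0.438), and -1.76 without WT replicate 3, where it passed (limma, adjusted p = 0.0147).

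Lyz2 (ENSMUSG00000069516), the M-type lysozyme of myeloid cells, had the largest log2 difference of the 40. It was at 648, 577 and 66.5 FPKM in WT and at 69.2, 37.1 and 69.4 FPKM in cKO libraries. WT replicate 3 was below cKO replicates 1 and 3, and WT replicate 1 held 9.74 times its level. The log2 difference was -2.36 with an SE of 0.82 (limma, adjusted p = 0.652), and -3.42 without WT replicate 3, where it passed (limma, adjusted p = 0.00768). Lyz1, a near-identical copy expressed by Paneth cells of the gut, was listed at 0.338, 0.284 and 0.0390 FPKM in WT and at 0 in the 3 cKO libraries, and fragments may be shared between the copies.

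Cd68, a lysosomal membrane glycoprotein, was at 153, 89.2 and 43.4 FPKM in WT and at 61.7, 27.0 and 34.6 FPKM in cKO libraries. Lgmn, the asparaginyl protease legumain, was at 132, 109.7 and 102 FPKM in WT and at 115, 65.4 and 128 FPKM in cKO libraries. Its log2 difference was -0.20 with an SE of 0.29 (limma, adjusted p = 0.911).

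The 2 subunits of the phagocyte NADPH oxidase in the list had unlike patterns. Cybb, the catalytic gp91phox subunit, was at 3.83, 7.48 and 7.90 FPKM in WT and at 4.55, 22.3 and 2.95 FPKM in cKO libraries. Its highest value was in cKO replicate 2, where most of the 40 were low, and its log2 difference was 0.16 with an SE of 0.64 (limma, adjusted p = 0.970). Ncf1, the cytosolic p47phox subunit, was at 4.19, 3.19 and 0.752 FPKM in WT and at 1.35, 0.585 and 1.10 FPKM in cKO libraries. Cyba, the partner chain p22phox outside the list, was at 242, 144 and 59.4 FPKM in WT and at 111, 94.2 and 76.3 FPKM in cKO libraries.

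**Figure D4:**
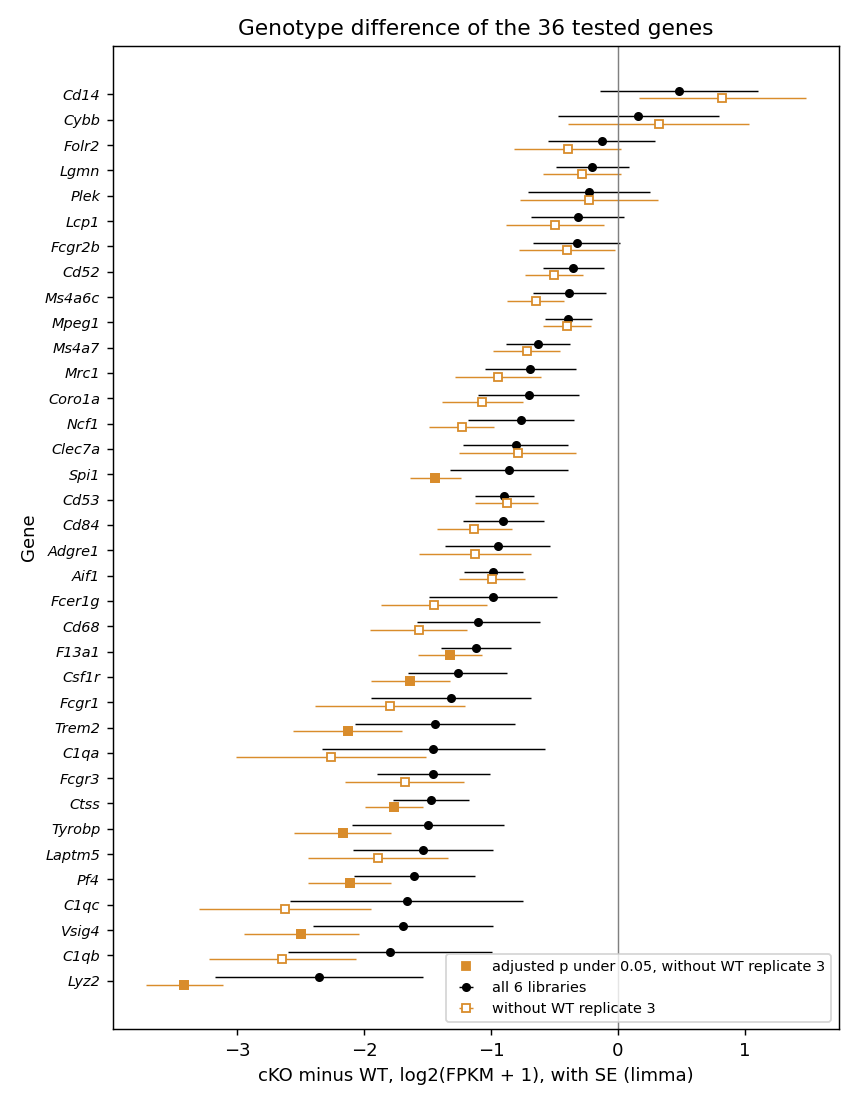
Difference between genotypes of the 36 tested genes on the log2(FPKM + 1) scale with its SE, in black for all 6 libraries and in orange without WT replicate 3; filled squares mark an adjusted p under 0.05 (limma). With all libraries 34 genes lie left of 0 and none passes, and without WT replicate 3 the 9 filled genes pass, Lyz2 farthest left at -3.42.

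Which library was highest or lowest varied among the 40 genes. WT replicate 1 was the highest for 23, WT replicate 2 for 10 and cKO replicate 2 for 7, and no gene was highest in WT replicate 3 or in cKO replicates 1 and 3. The 7 genes were Ptprc, Lcp1, Plek, Cd33, Fcgr2b, Cd14 and Cybb. Yet cKO replicate 2 was also the lowest library for 19 genes, cKO replicate 3 for 14, WT replicate 3 for 4 and cKO replicate 1 for 2; for the remaining gene, Cx3cr1, WT replicate 1 and cKO replicate 1 tied at 0. High and low members thus occurred side by side in cKO replicate 2.

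Set against Csf1r in the same library, the genes differed in how far their ratio ranged between libraries, and no cutoff was set. Pf4 stood at 26.2, 22.8 and 19.2 times the FPKM of Csf1r in WT and at 18.4, 17.9 and 21.4 times in cKO libraries, so its highest ratio was 1.46 times its lowest. For Cd68, F13a1 and Coro1a the highest ratio was 1.62, 1.63 and 1.69 times the lowest. Lyz2 stood at 25.7 and 25.1 times Csf1r in WT replicates 1 and 2, at 6.28 times in WT replicate 3, and at 6.14, 6.66 and 12.6 times in cKO libraries. C1qb stood at 4.68, 4.07 and 1.62 times in WT and at 1.96, 1.07 and 5.30 times in cKO libraries. The high ratios of C1qb were thus in WT replicates 1 and 2 and in cKO replicate 3.

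Mpeg1 stood at 1.49, 2.02 and 3.89 times Csf1r in WT and at 2.97, 5.647 and 5.33 times in cKO libraries, lowest where Csf1r was highest. The ratios that varied most were those of Cybb, Cd14 and Fcgr1, with a highest value 26.3, 15.05 and 12.2 times the lowest. Cybb reached 3.999 times Csf1r in cKO replicate 2 and was 0.152 to 0.746 times in the other libraries. Cd14 reached 8.69 times in that library and was lowest, 0.577 times, in WT replicate 2. These ratios describe the libraries, and no test was made.

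**Figure D5:**
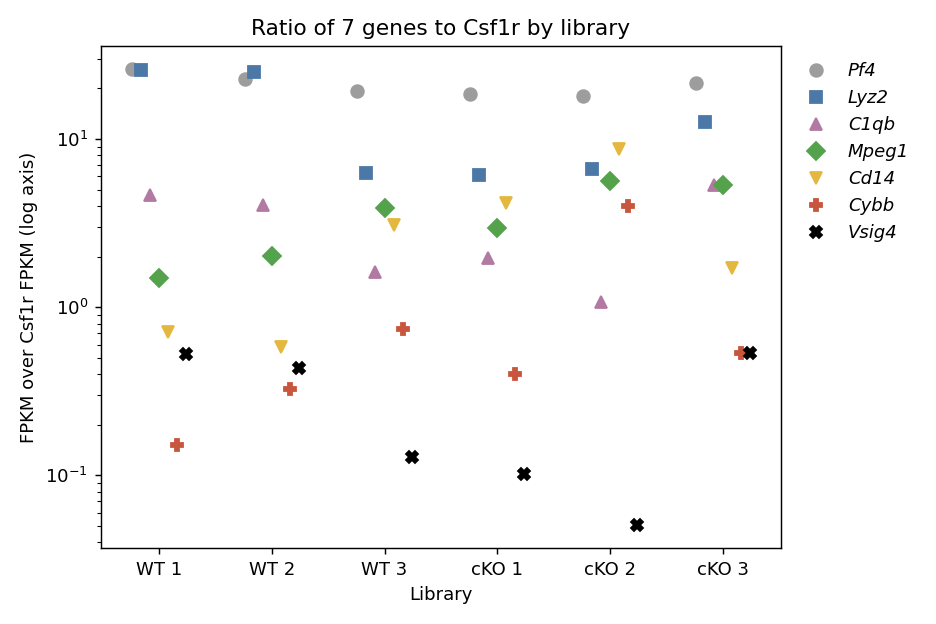
FPKM of 7 genes divided by that of Csf1r in the same library, on a log axis. Pf4 stays between 17.9 and 26.2 in all libraries, whereas Cd14 and Cybb reach 8.69 and 3.999 in cKO replicate 2 and Vsig4 and C1qb have their lowest ratios there.

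Other macrophage genes from a list beyond the 40 were mostly lower in mean as well. Of 36 such genes 26 were tested, with 21 lower, 5 higher, none past the threshold and a median difference of -0.63; without WT replicate 3, 1 passed as lower, the scavenger receptor Stab1, where 1.42% of all tested genes did. Clec4n, the fungal receptor dectin-2, was at 59.6, 53.0 and 32.7 FPKM in WT and at 31.7, 20.2 and 15 FPKM in cKO libraries. Ccr1, a chemokine receptor, was at 8.75, 11.3 and 8.84 FPKM in WT and at 6.28, 2.82 and 3.71 FPKM in cKO libraries. Cd36, a scavenger receptor for fatty acids and oxidised lipids, was at 38.3, 68.4 and 36.05 FPKM in WT and at 21.2, 14.3 and 28.35 FPKM in cKO libraries. In these 3 genes every WT library was above every cKO library, which held for 5 of the 26, against 5.01% of all tested genes.

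Signalling genes of blood cells numbered 22, of which 17 were tested, 15 were lower, 2 were higher and none passed, with a median of -0.46; without WT replicate 3, 1 passed as lower (1.42% of all tested genes did). That gene was Myo1f, a myosin of leukocytes, at 6.84, 5.60 and 2.07 FPKM in WT and 1.98, 0.695 and 1.68 FPKM in cKO libraries.

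The growth factors that act on these cells did not share one pattern. Csf1, the ligand that keeps macrophages alive, was at 437, 443 and 147 FPKM in WT and at 223, 430.3 and 203 FPKM in cKO libraries, and so was high in cKO replicate 2, where Csf1r was at 5.57 FPKM. Il34, the other ligand of the receptor, was at 0.762, 0.445 and 3.87 FPKM in WT and at 3.29, 5.75 and 3.23 FPKM in cKO libraries. Csf3, the granulocyte factor, was at 0.491, 0.254 and 36.8 FPKM in WT and at 28.8, 180.4 and 4.51 FPKM in cKO libraries. Il34 and Csf3 were low in WT replicates 1 and 2 and higher in the other 4 libraries. None of the 4 genes of this list passed (3 higher, 1 lower), and without WT replicate 3 only Il34 did, as higher (limma, adjusted p = 0.0314). In that fit 2.47% of all tested genes passed as higher.

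Among genes of classical activation, Tnf and Il1b were by far highest in cKO replicate 2. Of 8 such genes 6 were tested, 5 higher and 1 lower, none past the threshold, with a median of 1.68. Without WT replicate 3, Il6 and Ptgs2 passed as higher and Cd80 as lower (limma, adjusted p = 0.0447, 0.0170 and 0.0263). In that fit 2.47% of all tested genes passed as higher and 1.42% as lower. Tnf, the inflammatory cytokine, was at 0.618, 1.03 and 3.42 FPKM in WT and at 3.78, 292 and 2.82 FPKM in cKO libraries. Il1b, another, was at 0.280, 0.484 and 8.15 FPKM in WT and at 9.52, 170.1 and 2.40 FPKM in cKO libraries. The means of both thus rest on cKO replicate 2, the library where Cd14, Cybb and Plek were also highest. Ptgs2, the inducible cyclooxygenase made by many cell types, was at 23.8, 26.4 and 448 FPKM in WT and at 253, 297 and 111 FPKM in cKO libraries. Cd80, the co-stimulatory ligand, went the other way, with 3.89 to 6.87 FPKM in WT and 2.04 to 2.14 FPKM in cKO libraries.

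Of 8 genes of alternative activation 4 were tested, 3 lower, 1 higher and none past the threshold, with a median of -0.49. Arg1, which splits arginine, was at 40.2, 39.1 and 42.3 FPKM in WT and at 40.4, 4.79 and 26.1 FPKM in cKO libraries, low in the library where Tnf was high. Il10, an anti-inflammatory cytokine of the same list, was highest there, at 13.96 FPKM, and at 0 to 0.276 FPKM in the other 5 libraries. Of 7 MHC class II genes 6 were tested, 4 lower and 2 higher, none past the threshold, with a median of -0.03. Cd74, the invariant chain, was at 14.7, 9.07 and 26.2 FPKM in WT and at 22.6, 14.3 and 12.2 FPKM in cKO libraries. H2-Ab1, a class II chain, was at 1.89, 1.92 and 17.3 FPKM in WT and at 12.2, 8.79 and 2.81 FPKM in cKO libraries. Cd74 and H2-Ab1 were thus not at their highest in WT replicates 1 and 2, where Lyz2 and the C1q genes were.

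Genes of lipid-handling phagocytes numbered 10, with 9 tested, 7 lower, 2 higher and none past the threshold, and a median of -0.38. Gpnmb, a glycoprotein of lysosome-rich macrophages, was at 60.0, 49.1 and 21.2 FPKM in WT and at 19.7, 7.05 and 9.22 FPKM in cKO libraries, with no overlap. Without WT replicate 3, Gpnmb and the fatty acid-binding protein Fabp5 passed as lower (limma, adjusted p = 0.0331 and 0.0248), beside 1.42% of all tested genes. Spp1, the secreted osteopontin, was at 833, 647 and 1383 FPKM in WT and at 1077, 1107 and 1171 FPKM in cKO libraries.

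Defining markers of lymphocytes were near 0. Of 9 T and NK cell genes with a row, 8 were under 1 FPKM in every library, and their summed level was 1.16 to 1.97 FPKM in WT and 0.929 to 1.72 FPKM in cKO libraries. Cd3e, a chain of the T cell receptor complex, was listed at 0 in 3 libraries. All 6 B cell genes were under 1 FPKM, with sums of 0.311 to 0.771 FPKM over all libraries. The 5 neutrophil genes summed to 0.806 to 2.79 FPKM in WT and to 2.98, 6.58 and 0.867 FPKM in cKO libraries, so the highest was again cKO replicate 2. The 7 dendritic cell genes summed to 1.77 to 5.57 FPKM in WT and 4.24 to 4.90 FPKM in cKO libraries. The monocyte genes given here did not share a level. Ccr2 and Ly6c2 mark recruited monocytes. Ccr2 was at or under 0.0728 FPKM throughout, whereas Ly6c2 was at 0.0779, 0.112 and 1.87 FPKM in WT and at 0.339, 2.76 and 0.0545 FPKM in cKO libraries. Plac8, also made by other cells, was at 202 to 295 FPKM in WT and 209 to 214 FPKM in cKO libraries, Ace at 2.45 to 12.9 and 3.39 to 11.6 FPKM, and Nr4a1 at 4.92 to 15.5 and 8.30 to 26.2 FPKM.

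Markers of the other testis cells also differed between the libraries, some with the 40 genes and some against them, and their part in the result was not tested. Of 15 Sertoli genes 13 were tested, 10 higher and 3 lower in cKO libraries, with a median of 0.79 and none past the threshold; without WT replicate 3, 6 passed as higher, where 2.47% of all tested genes did. The summed Sertoli level was lowest in WT replicates 1 and 2, where the 40 genes were highest. The ratio of the summed 40 genes to the summed Sertoli genes was 9.55, 8.25 and 1.03 in WT and 1.12, 0.943 and 0.753 in cKO libraries. The 7 peritubular myoid genes summed to 3095, 2426 and 536 FPKM in WT and to 725, 844 and 1299 FPKM in cKO libraries, highest in the same WT libraries. Most of this sum was the smooth muscle actin Acta2, at 2853, 2240 and 432 FPKM in WT and 599, 767 and 1069.5 FPKM in cKO libraries. By fitted difference 4 of the 7 were lower and 3 higher in cKO libraries, with a median of -0.24, so the sum does not stand for all of them. The 9 fibroblast genes summed to 744, 1054 and 497 FPKM in WT and to 593, 556 and 914 FPKM in cKO libraries. The 8 endothelial genes summed to 36.9, 32.03 and 62.5 FPKM in WT and to 101, 63.2 and 59.2 FPKM in cKO libraries. The 8 Leydig genes summed to 396, 223 and 244 FPKM in WT and to 272, 195 and 170.1 FPKM in cKO libraries, and the 10 germ cell genes to 97.2, 49.3 and 198 FPKM in WT and 244, 42.8 and 15.8 FPKM in cKO libraries. The fibroblast, Leydig and germ cell sums did not follow the order of the 40 genes, and the endothelial sum was lowest in WT replicates 1 and 2. None of these genes passed with all libraries. Without WT replicate 3, 3 endothelial genes (Pecam1, Kdr and Esam) passed as higher, 2 myoid (Acta2 and Tagln) and 2 fibroblast genes (Ogn and Tcf21) as lower, and of the Leydig genes Star as higher and Hsd3b1 as lower. In that fit 2.47% of all tested genes passed as higher and 1.42% as lower. No list of these other cells held a gene at 0 in all 6 libraries.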

How the data were processed

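RNA of 3 WT and 3 cKO cultures was sequenced, and groups and replicate numbers come from the labels. Tools named in the submitters' processing notes are FastQC and HISAT2 2.1.0, with the build mm8; how fragments were counted, on which annotation and with which strand, is not given in the sources used here. All deposited values were taken as FPKM from the values themselves. Multiplied by exon length in GENCODE M21 and depth they fell on whole fragments within 0.02 for 38 of the 40 genes in all libraries; M21 is later than mm8, so the build is in doubt. Of the identifiers, 343 matched no symbol.

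The values were tested as log2(FPKM + 1), which understates changes of low genes, with limma 3.58.1 (R 4.3.3, eBayes with trend), genotype as the only term, two-sided, over the 12284 genes that reached 1 FPKM in 3 or more libraries. Adjustment was Benjamini-Hochberg over all of them, threshold 0.05. Genes under the filter were fitted without it. No count model was used, since FPKM are not counts. Intervals are exact Poisson at 95%. The fit was tested on simulated data. Python 3.11.15 made tables and figures.

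The 40 genes and all lists were chosen with earlier results of these data known. Values are given in full for, in each role group, the 2 genes with the smallest p and the one with the highest mean, and for up to 4 genes of each other list (the 2 with the smallest p and the 2 highest); other genes of those lists are named for background and were chosen after their values were seen. Results were recomputed without the filter and with one of 5 FPKM, with pseudocounts of 0.1 and 5, after median-ratio scaling or quantile normalization, with array weights, with a threshold of 0.1, with a replicate block and without each library; leaving out WT replicate 3 and cKO replicate 2 together was added after seeing the data. Some listed markers of other cells had no row and are not analysed here, and no sequence is shown for some genes.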

Additional observations from a re-analysis of the deposited data

How the results depend on the processing

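The count of the 40 genes past the threshold was 0 with every filter, pseudocount, scaling, weighting and threshold tried. It ranged from 0 to 9 when 1 library was left out, with 9 without WT replicate 3 and 0 without each of the others, and was 9 without WT replicate 3 and cKO replicate 2 together, an alternative chosen after seeing the data. The count of all genes past the threshold was 2; it was 0 without the filter and 0 with the replicate block, ranged from 0 to 478 when 1 library was left out, and was 272 without both libraries. The count of the 40 whose groups do not overlap was 8. It was 4 with a filter of 5 FPKM, where 21 of the 40 were tested, and 7 after quantile normalization. It ranged from 8 to 28 when 1 library was left out, and was 31 without both. With fewer libraries in a group, non-overlap is easier to reach. The cause of the other changes was not tested. The median difference over those of the 40 tested in each run lay between -1.18 and -0.55, the smallest size with a pseudocount of 5. The cKO to WT ratio of the summed level, 0.366, was 0.388 without Pf4 and 0.333 after median-ratio scaling. When 1 library was left out it ranged from 0.287 (without WT replicate 3) to 0.457 (without WT replicate 1), and it was 0.316 without both libraries. None of the 14 genes given in full changed direction under any alternative run; array weights and leaving out 1 cKO library left 33 genes lower and 3 higher.

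The labels number replicates 1 to 3 in both genotypes without saying that a number marks a shared animal, day or batch. Deviations of same-numbered libraries from their group means correlated at 0.138, 0.0322 and -0.206. Between libraries of unlike number the correlations ranged from -0.447 to 0.484. Deviations from a mean of so few libraries are tied to each other, so these values cannot tell whether the numbers pair the samples. With the replicate block none of the 40 passed and 16 had an unadjusted p under 0.05, against 13 without it. Genes resting on few fragments, such as Aif1, Fcgr1 and Vsig4 in cKO replicate 2, are limited by depth.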
